A study of Drosophila melanogaster with 3 samples.

Results

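Sugar is burned in a fly cell through a short chain of enzymes, and this section follows the transcripts of 43 genes of that chain across the testis apical tip, the male thorax and the female thorax of Drosophila melanogaster. The genes were listed by name, as the enzymes of sugar mobilization, glycolysis, the glycerophosphate shuttle and the tricarboxylic acid (TCA) cycle together with paralogs known from the testis (Hex-t1, Hex-t2, SdhAL and SdhBL). Every array probe whose locus tag belongs to one of them was taken, which gave 82 probes for 43 of the 13927 genes and 32162 probes on the array. All 43 genes were found on the array, 16 with a single probe and 27 with several. Glycolysis turns glucose into pyruvate in the cytosol, pyruvate dehydrogenase feeds the product into the mitochondrion, and the TCA cycle oxidizes it and passes electrons to the respiratory chain. Insect flight muscle, which fills most of the thorax, is known for a very high flux through glycolysis, the glycerophosphate shuttle and the cycle. Several of these enzymes have a second gene in Drosophila that is known for expression in the testis, and the comparison of the tissues therefore addresses which copy of each enzyme is expressed where.

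Testis apical tip, male thorax and female thorax of wild-type flies of the OreR laboratory strain were assayed, with 4 arrays each and no treatment or transgene in any group. The testis apical tip was dissected from adult males of 2 to 4 days, as the series' design text gives it, with the somatic sheath removed; per the study's methods it holds hub cells, stem cells, somatic cyst cells, spermatogonia and early primary spermatocytes. The male and the female thorax were dissected from adult flies without legs and wings, and no age is given for them in that text. The methods describe all flies as mated and give a wider range of days for every dissection, so the age of the flies is not settled by these sources. Each array received a pool of RNA from many flies, so the spread between arrays is that of pools and of hybridization. Because whole pieces of tissue were assayed, fewer cells of a type and less RNA per cell cannot be told apart.

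Hybridization used 3 slides of 4 arrays. The first 2 replicates of either thorax shared slide A. Tip replicates 1 and 2 were placed on slide B together with male thorax replicates 3 and 4, and the remaining tip arrays on slide C together with the remaining female thorax arrays. Between 57.0% and 74.6% of the probes were well above background on an array, and none of the spots was saturated. The upper quartile of the log2 signal lay between 13.52 and 13.78 on the tip arrays and between 10.48 and 11.71 on the thorax arrays, so every level below is a log2 signal minus the 75th percentile of its own array, called the scaled level here, and 0 is the level of a probe at that percentile. Tip replicate 1 stood apart, with a correlation of 0.809 to 0.812 to the other tip arrays where those correlated at 0.991 to 0.996 with each other. On that array 21 of the 72 probes of the 43 genes with a mean log2 signal above 10 on the other tip arrays, and 3341 of all 15367 such probes, read more than 3 log2 units below the other 3 tip arrays, so results that rest on it are given with and without it. By their summed signal the germline and the muscle markers fit the labels of the tissues. The hub and cyst cell markers, given below, did not separate them. The scaled level of the summed signal of 16 germline and spermatocyte markers was 5.93 to 6.21 in the tip, 2.68 to 3.32 in the male thorax and 2.37 to 2.76 in the female thorax. That of 13 flight and jump muscle markers was 0.90 to 2.51, 8.95 to 9.67 and 8.93 to 10.15 in the same order. The muscle gene upheld (up) was well above background on none of the tip arrays, while 10 of the 13 muscle markers were so on all 4. Of the 16 germline markers, zpg and bol were called in neither tip comparison, and nanos was not called against the female thorax. On tip replicate 1 the muscle markers read 2.51 against 0.90 to 1.05 on the other tip arrays, the fat body markers 3.75 against 2.13 to 2.38, the hub and cyst cell markers 2.59 against 1.00 to 1.06 and the accessory gland markers 2.23 against 0.40 to 0.74. The summed level of 8 postmeiotic spermatid markers was 6.93 to 7.09 in the tip, -0.77 to 1.80 in the male and -0.50 to 0.24 in the female thorax. The study's list of cells in the tip names no spermatids. Fat body markers read 2.13 to 3.75 in the tip, 7.33 to 7.73 in the male and 8.83 to 9.31 in the female thorax, nervous system markers 4.03 to 4.31, 5.96 to 6.29 and 5.94 to 6.76, gut, tracheal and cuticle markers 3.87 to 4.08, 4.36 to 6.99 and 6.27 to 7.19, and accessory gland markers 0.40 to 2.23, -1.50 to -0.30 and -2.40 to -1.63. Hub and cyst cell markers read 1.09 to 1.29 in the male and 0.81 to 1.02 in the female thorax. Those levels lie close to the tip arrays other than replicate 1. Of these 8 markers, 3 were called higher and 2 (Fas3 and CadN) lower in the tip against the male thorax. Against the female thorax 4 were higher and 2 lower. The summed levels of the other lists named here differed between tip and thorax, though not every gene followed its list. The part of each list in the changes was not tested.

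Most of the 43 genes had far less transcript in the tip than in the thorax, and 6 had more. The total transcript of an enzyme over all its copies was not computed. Copies outside the 43 genes that rose are given further on. A gene was judged by its probe with the highest mean signal, and a change was called where limma gave an adjusted p under 0.05 over all 32162 probes. Against the male thorax, 36 of the 43 genes were lower in the tip, 6 were higher and 1, ScsbetaA, was not called. Over all genes on the array 40.9% were lower and 33.1% higher in that comparison, and the median change was -4.11 log2 units over the 43 genes against -0.49 over all genes. Against the female thorax, 35 genes were lower, 6 were higher and 2, Treh and ScsbetaA, were not called. Here 42.9% of all genes were lower and 32.5% higher, and the medians were -4.23 and -0.59. The same 6 genes were higher in both comparisons, which share the tip arrays: Hex-t1, Hex-t2, Pglym87, SdhAL, SdhBL and ScsbetaG. Without tip replicate 1 the counts were 37 lower and 6 higher against the male thorax, and 36 lower and 6 higher against the female thorax. Of all genes, 45.3% were then lower and 36.1% higher in the first comparison, and 47.3% and 35.4% in the second.

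**Figure D1:**
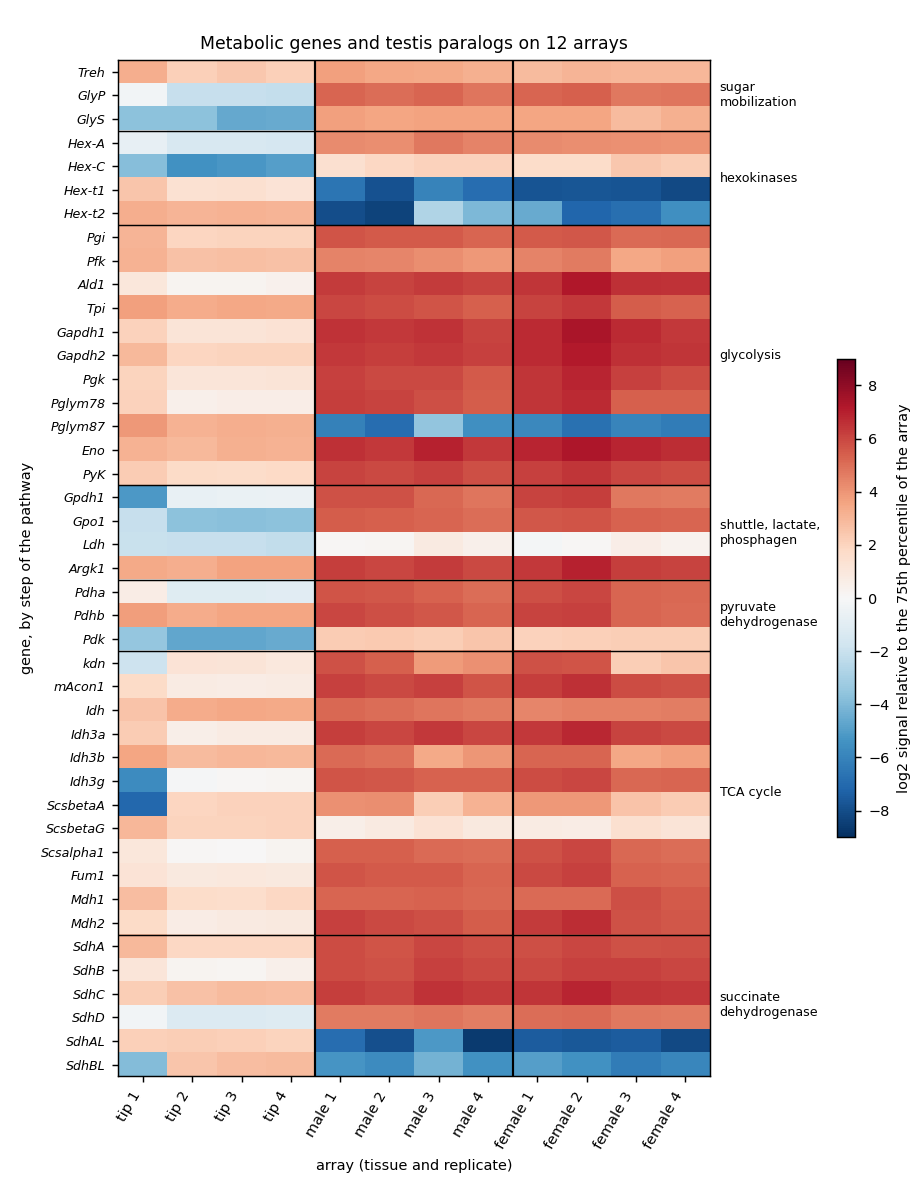
Scaled log2 signal (colour, 0 at the 75th percentile of each array) of the 43 genes, grouped by step, on the 4 testis apical tip, 4 male thorax and 4 female thorax arrays, each gene by its probe with the highest mean signal. Hex-t1, Hex-t2, Pglym87, SdhAL and SdhBL are blue in the thorax and red in the tip except SdhBL on tip replicate 1 (-3.91), and most other rows are darker red in the thorax.

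How much of this is a fall depends on the scale that is laid over tissues of unlike brightness. With no scaling between arrays the median of all genes moved from -0.49 to 1.85 log2 units against the male thorax and from -0.59 to 2.06 against the female thorax, and the median of the 43 genes moved from -4.11 to -1.77 and from -4.23 to -1.58. On that scale 26 genes were lower, 8 higher and 9 not called against the male thorax, where 17.7% of all genes were lower and 57.8% higher, and 25 were lower, 9 higher and 9 not called against the female thorax, where 15.8% and 61.3% of all genes were so. After quantile normalization 33 genes were lower and 6 higher against the male thorax, and 31 lower and 6 higher against the female thorax, with 33.8% of all genes lower and 37.8% higher in the first comparison and 34.4% and 36.6% in the second. The 6 genes that rose were called higher on all 3 scales, and the genes whose sign turned without scaling are named where they are described.

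Stored and circulating sugar is handled by 3 of the genes. Glycogen phosphorylase (GlyP), which releases glucose units from glycogen, had scaled levels of -0.21, -2.05, -2.08 and -2.13 on tip replicates 1 to 4, of 5.22, 5.05, 5.26 and 4.85 in the male thorax and of 5.21, 5.35, 4.74 and 4.82 in the female thorax. Tip replicate 1 was the highest of the tip arrays, and all 4 lay well below every thorax array. The fall was -6.71 log2 units (SE 0.41, adjusted p = 3.21e-08, limma, n = 4 and 4) against the male and -6.65 against the female thorax.

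Glycogen synthase (GlyS), which builds glycogen, read -3.72, -3.71, -4.59 and -4.55 in the tip, 3.71, 3.55, 3.60 and 3.59 in the male thorax and 3.58, 3.54, 2.82 and 3.19 in the female thorax. The groups did not overlap, and the 2 tip arrays of slide B lay above the 2 of slide C. Its fall of -7.76 (SE 0.28, 216-fold, adjusted p = 8.85e-10, limma) against the male and -7.43 against the female thorax ranked among the 3 largest of the 43 genes in both comparisons. Trehalase (Treh), which splits the blood sugar trehalose, differed much less. Its change was -0.94 (SE 0.27, adjusted p = 0.00829, limma) against the male thorax and -0.46 (adjusted p = 0.142) against the female thorax, it became -1.19 and -0.71 without tip replicate 1, which overlapped the thorax arrays, and it turned to 1.40 and 2.19, both called higher, with no scaling.

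Glucose enters glycolysis through hexokinase, and the 4 hexokinase genes split evenly. Hex-A, the hexokinase gene best known from somatic tissue, read -0.74, -1.47, -1.44 and -1.50 in the tip, 4.28, 4.18, 4.72 and 4.46 in the male thorax and 4.26, 4.22, 4.09 and 4.02 in the female thorax. Hex-C, a second somatic hexokinase, read -3.80, -5.41, -5.24 and -4.97 in the tip, 1.42, 1.84, 2.10 and 2.08 in the male thorax and 1.68, 1.64, 2.42 and 2.22 in the female thorax. Both were lower on every tip array than on any thorax array, with changes of -5.70 and -6.72 log2 units against the male and -5.43 and -6.85 against the female thorax (adjusted p at most 1.48e-08, limma).

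Hex-t1 and Hex-t2, hexokinases named for the testis, went the other way. Hex-t1 read 2.47, 1.38, 1.42 and 1.26 in the tip, -6.59, -7.84, -6.02 and -6.84 in the male thorax and -7.75, -7.72, -7.75 and -8.11 in the female thorax, where it was well above background on 2 of 4 male arrays and on none of the female arrays. It rose by 8.45 log2 units (SE 0.39, adjusted p = 4.43e-09, limma) against the male thorax, and was at least 275-fold higher than in the female thorax, where at least sets the tip mean against the lowest signal that counts as well above background on each dim array (fitted change 9.47, adjusted p = 2.05e-09). Hex-t2 read 3.26, 3.09, 3.15 and 3.09 in the tip, -8.00, -8.35, -2.71 and -4.06 in the male thorax and -4.54, -7.15, -6.78 and -5.50 in the female thorax, with 2 of 4 arrays well above background in each thorax group. The tip arrays agreed closely for Hex-t2 and the thorax arrays spread over several log2 units, yet no thorax array came near the tip. Its rise was 8.93 (SE 1.13, adjusted p = 1.98e-05, limma) against the male and 9.14 (adjusted p = 1.63e-05) against the female thorax.

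Of the 11 genes from phosphoglucose isomerase to pyruvate kinase, 10 were lower in the tip in both comparisons and 1, Pglym87, was higher. The falls ran from -1.47 (Pfk) to -5.73 log2 units (Ald1) against the male thorax and from -1.32 to -6.20, by the same 2 genes, against the female thorax. Pfk, phosphofructokinase, which commits sugar to the pathway, and Tpi, triosephosphate isomerase, fell least, by 2.78-fold and 4.69-fold against the male thorax. Of the 3 probes of either gene only 1 was called lower in each comparison. Neither gene was called by the mean over its probes. With no scaling Pfk turned to 0.87 (adjusted p = 0.0491, limma) and, against the female thorax, to 1.34 (adjusted p = 0.00548), both called higher, while Tpi turned to 0.11 and 0.35, not called. After quantile normalization Tpi lost its call against the female thorax (-0.25, adjusted p = 0.236). Pgi, phosphoglucose isomerase, fell by 9.46-fold, Eno, enolase, by 11-fold and PyK, pyruvate kinase, by 17.3-fold in the same comparison. Pgk, phosphoglycerate kinase, fell by 23.3-fold against the male and 31.4-fold against the female thorax. These 4 kept their sign with no scaling, though Pgi was then not called against the female thorax (-0.46).

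Ald1, the aldolase of glycolysis, read 1.02, 0.25, 0.24 and 0.38 in the tip, 6.31, 6.11, 6.31 and 6.07 in the male thorax and 6.46, 7.19, 6.56 and 6.48 in the female thorax by its brightest probe. The groups lay far apart, by 52.9-fold and 73.5-fold, but other probes of Ald1 did not show this and are given further on. Glyceraldehyde phosphate dehydrogenase is encoded by Gapdh1, with 2.06, 1.13, 1.15 and 1.30 in the tip, 6.50, 6.33, 6.50 and 6.08 in the male thorax and 6.71, 7.36, 6.69 and 6.40 in the female thorax, and by Gapdh2, with 2.90, 1.96, 2.00 and 2.03, 6.35, 6.22, 6.38 and 6.12 and 6.69, 7.12, 6.59 and 6.42 in the same order. Both were lower on every tip array. Gapdh1 fell by 30.8-fold and Gapdh2 by 16.5-fold against the male thorax, and by 41.6-fold and 22.4-fold against the female thorax (adjusted p at most 6.84e-08, limma).

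Phosphoglycerate mutase has 2 genes among the 43, and they showed opposite patterns. Pglym78 read 2.04, 0.49, 0.61 and 0.63 in the tip, 6.24, 6.06, 5.77 and 5.42 in the male thorax and 6.40, 6.70, 5.38 and 5.38 in the female thorax. Pglym87 read 3.92, 3.13, 3.29 and 3.17 in the tip, -6.08, -6.87, -3.57 and -5.52 in the male thorax and -5.82, -6.75, -5.96 and -6.30 in the female thorax, where it was well above background on 2 male and no female arrays. Pglym78 fell by 30.5-fold and 32.5-fold (adjusted p = 6.86e-07 and 5.75e-07, limma). Pglym87 rose by 8.89 log2 units (SE 0.58, adjusted p = 5.85e-08) against the male thorax and was at least 710.1-fold higher than in the female thorax (fitted change 9.58, adjusted p = 3.09e-08).

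The glycerophosphate shuttle carries reducing equivalents from cytosol to mitochondrion and is known for its rate in flight muscle. Its genes among the 43, Gpo1 and Gpdh1, were lower in the tip. Other genes of the same steps, Gpo2, Gpo3, Gpdh2 and Gpdh3, were higher there and are set against them further on. Gpo1, the mitochondrial glycerophosphate oxidase, read -2.10, -3.72, -3.77 and -3.69 in the tip, 5.48, 5.37, 5.24 and 5.01 in the male thorax and 5.61, 5.65, 5.30 and 5.27 in the female thorax. No array of one tissue approached those of the other, and the fall of -8.59 (SE 0.36, 386-fold, adjusted p = 2.23e-09, limma) against the male and -8.78 (438-fold) against the female thorax was the largest among the 43 genes in both. Its cytosolic partner Gpdh1, glycerophosphate dehydrogenase, read -5.16, -0.68, -0.57 and -0.51 in the tip, 5.75, 5.70, 5.16 and 4.85 in the male thorax and 6.08, 6.20, 4.77 and 4.68 in the female thorax. Tip replicate 1 lay far below the other tip arrays, and the fall of -7.09 and -7.16 with it became -5.95 and -6.02 without it, all called. The 4 thorax arrays of slide A also read higher than the 4 of slides B and C.

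Ldh, lactate dehydrogenase, which disposes of pyruvate without oxygen, fell by 5.54-fold and 4.87-fold. Argk1, arginine kinase, which buffers ATP through phosphoarginine, fell by 6.31-fold and 7.7-fold. With no scaling neither was called in either comparison, with changes of -0.13 and 0.37 for Ldh and -0.31 and -0.29 for Argk1, so that the sign of Ldh turned against the female thorax.

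The 3 genes of the pyruvate dehydrogenase step were all lower in the tip, but by unequal amounts. Pdha, the alpha subunit of the enzyme that decarboxylates pyruvate, changed by -6.01 log2 units (SE 0.41) against the male and -6.17 against the female thorax. Its beta subunit partner Pdhb changed by -2.13 (SE 0.30) and -2.09, and with no scaling its change turned to 0.21 and 0.56, not called. Pdk, the kinase that switches the complex off, changed by -6.69 (SE 0.28, 103-fold) and -6.51. All of these falls had an adjusted p of at most 6.03e-05 (limma).

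Of the 12 genes of the TCA cycle other than succinate dehydrogenase, 10 were lower in the tip in both comparisons, ScsbetaG was higher and ScsbetaA was not called. mAcon1, aconitase, read 1.69, 0.73, 0.65 and 0.76 in the tip, 6.12, 5.95, 6.17 and 5.66 in the male thorax and 6.23, 6.55, 5.86 and 5.76 in the female thorax, a fall of 32.3-fold and 35.2-fold. Scsalpha1, the alpha subunit of succinyl-CoA synthetase, read 1.02, 0.14, 0.06 and 0.22 in the tip, 5.39, 5.37, 5.09 and 5.01 in the male thorax and 5.75, 5.98, 5.15 and 5.03 in the female thorax, a fall of 29-fold and 34.7-fold. Neither gene had a tip array near a thorax array. Fum1, fumarase, fell by 22.5-fold, Mdh2, mitochondrial malate dehydrogenase, by 28.1-fold, and Mdh1, its cytosolic counterpart, by 9.68-fold against the male thorax, of which only Mdh1 lost its call with no scaling (-0.93).

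NAD-dependent isocitrate dehydrogenase is built of alpha, beta and gamma subunits, and their genes changed unequally. Idh3a fell by 34.1-fold and 37.2-fold. Idh3g fell by 116-fold and 123-fold with tip replicate 1, on which it read -5.66 against -0.09 to 0.15 on the other tip arrays, and its change was -5.42 and -5.51 log2 units without it. Idh3b changed by -1.28 (SE 0.51, adjusted p = 0.0404, limma) and -1.33 (adjusted p = 0.0324), its arrays overlapped, and with no scaling the change turned to 1.06 and 1.32, not called. Idh, the NADP-dependent isocitrate dehydrogenase, changed by -1.73 and -1.32, and turned to 0.62 and 1.33 with no scaling, the latter called higher.

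The citrate synthase gene kdn, which opens the cycle, read -1.85, 1.22, 1.16 and 0.95 in the tip, 5.70, 5.38, 3.84 and 4.10 in the male thorax and 5.72, 5.70, 2.24 and 2.52 in the female thorax. Its tip arrays stayed below all thorax arrays, but the thorax arrays themselves fell into a high pair on slide A and a lower pair on the other slide. The change was -4.39 (SE 0.96, adjusted p = 0.00156, limma) and -3.68 (adjusted p = 0.00501), -3.65 and -2.94 without tip replicate 1, and within slide C alone it was -1.33 against the female thorax. With no scaling it was -2.04 and -1.02, not called. Succinyl-CoA synthetase pairs its alpha subunit with one of 2 beta subunits, of which ScsbetaA gives the ATP-forming and ScsbetaG the GTP-forming enzyme. ScsbetaG read 2.97, 2.02, 2.03 and 2.06 in the tip, 0.51, 0.84, 1.33 and 0.88 in the male thorax and 0.70, 0.67, 1.42 and 1.17 in the female thorax, and rose by 2.6-fold (adjusted p = 0.00165, limma) and 2.43-fold (adjusted p = 0.00278). This was the smallest of the 6 rises, it was not called within slide B alone, and the mean over both probes of the gene turned it to -0.38 and -0.35. ScsbetaA read -7.05, 1.90, 2.05 and 2.09 in the tip, 4.14, 4.16, 2.21 and 3.11 in the male thorax and 3.92, 3.92, 2.55 and 2.29 in the female thorax. Its change of -3.65 (SE 1.72, adjusted p = 0.0774) and -3.42 (adjusted p = 0.0925) rested on tip replicate 1, and without that array it was -1.39 (adjusted p = 0.0404) and -1.15 (adjusted p = 0.0747).

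Succinate dehydrogenase, which sits in both the cycle and the respiratory chain, has 4 subunits, and all 4 general genes were lower in the tip. SdhA, the flavoprotein subunit, read 2.91, 1.87, 1.86 and 1.87 in the tip, 5.87, 5.66, 6.04 and 5.81 in the male thorax and 5.78, 6.04, 5.71 and 5.78 in the female thorax. SdhB, the iron-sulfur subunit, read 1.06, 0.24, 0.18 and 0.48 in the tip, 5.90, 5.72, 6.13 and 5.92 in the male thorax and 5.96, 6.14, 6.14 and 6.04 in the female thorax. SdhA fell by 13.1-fold and 13-fold, SdhB by 43.1-fold and 47.8-fold, and the membrane anchors SdhC and SdhD by 12.6-fold and 51-fold against the male thorax. The 4 genes stayed lower on every scale tried.

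The paralogs of SdhA and SdhB rose. SdhAL read 2.17, 2.21, 2.18 and 2.01 in the tip, -6.88, -7.92, -5.16 and -8.59 in the male thorax and -7.52, -7.63, -7.51 and -8.13 in the female thorax, well above background on 1 male and no female arrays. It rose by 9.28 log2 units (SE 0.58, adjusted p = 4.27e-08, limma) against the male thorax, a rise that did not stand apart from those of Hex-t2 and Pglym87, whose order changed after quantile normalization (SdhAL 9.52, Hex-t2 9.81, Pglym87 10.49), and it was at least 391-fold higher than in the female thorax (fitted change 9.84). SdhBL read -3.91, 2.48, 2.76 and 2.82 in the tip, -5.31, -5.64, -4.27 and -5.43 in the male thorax and -4.97, -5.48, -6.27 and -5.90 in the female thorax. Tip replicate 1 lay far below the other tip arrays though still above every thorax array, and the rise of 6.20 (SE 1.25, adjusted p = 8.60e-04) and 6.69 (adjusted p = 4.93e-04) became 7.85 and 8.34 without that array. It was not called within slide B alone, which holds that array.

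**Figure D2:**
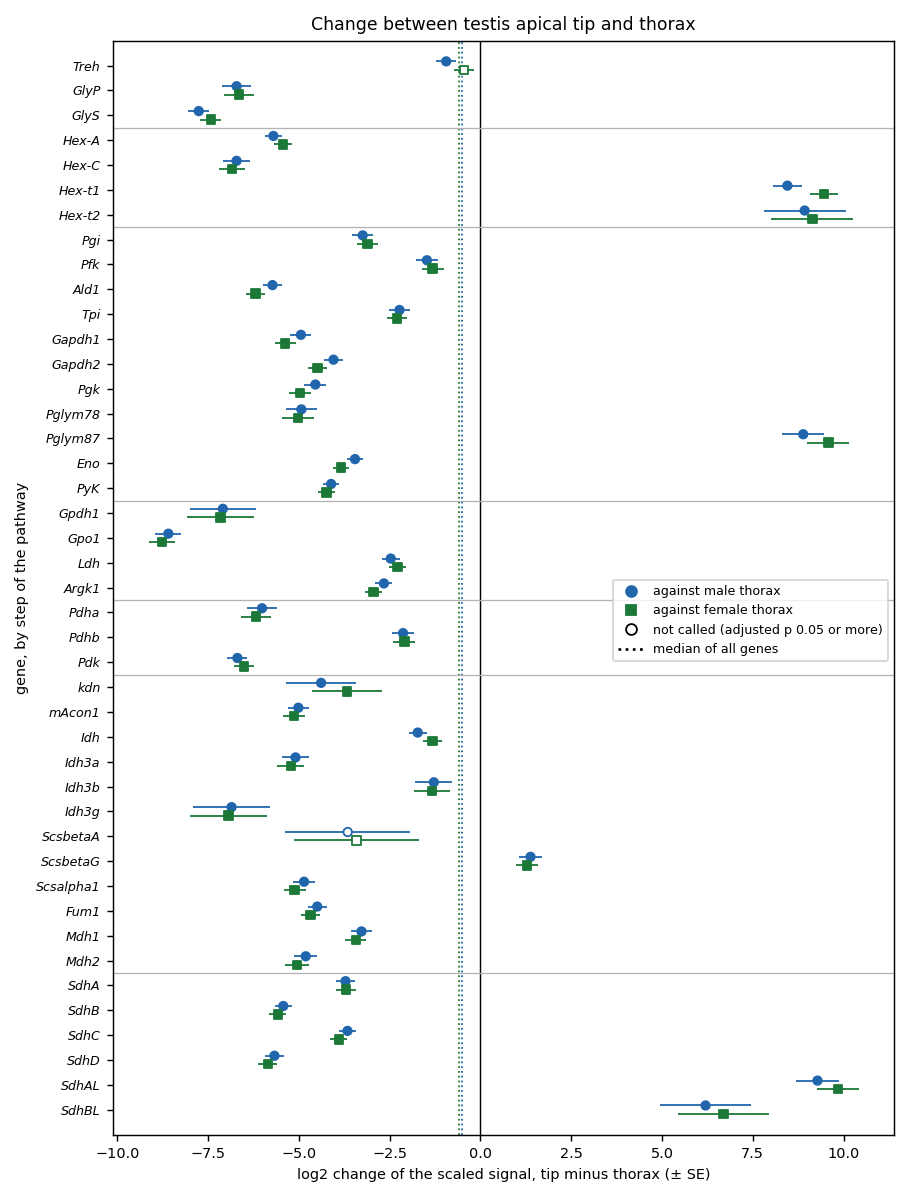
Change of the scaled log2 signal between testis apical tip and male thorax (circles) or female thorax (squares) for each of the 43 genes by its brightest probe, with the standard error of the limma fit as bars, n = 4 arrays a tissue, open symbols for changes not called, and dotted lines at the medians of all genes (-0.49 and -0.59). The 6 rises stand at the right and the falls reach -8.59 and -8.78 at Gpo1; with no scaling the signs of Treh, Pfk, Tpi, Pdhb, Idh and Idh3b turn in both comparisons and that of Ldh against the female thorax.

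Setting a paralog against its counterpart on the same array removes any factor that scales a whole array, so it asks whether the balance between 2 copies shifts without a choice of scale for the array. The log2 ratio was formed for 14 pairs on each array, and its level was compared only between tissues, since different probes have no common scale. In all 28 tests, 14 pairs in 2 comparisons, the tip and thorax arrays did not overlap, and each had p = 0.0286 and an adjusted p = 0.0286 by an exact two-sided permutation test over 70 labellings of 4 arrays against 4, the smallest p that this design allows. The pairs were chosen with earlier results of these data known, and they share the tip arrays and some counterparts (Hex-A, Gpo1 and Gpdh1). The 28 results are therefore not independent, and their number is no separate support. How often other pairs of genes shift between these tissues was not computed. In 24 tests the ratio was higher in the tip. Hex-t1 over Hex-A was 14.15 log2 units higher than in the male thorax, Hex-t2 over Hex-A 14.63, Pglym87 over Pglym78 13.82, SdhAL over SdhA 13.00 and SdhBL over SdhB 11.63. Without tip replicate 1 the SdhBL ratio was 13.47 higher. Against the female thorax the same ratios differed by 14.90, 14.58, 14.61, 13.54 and 12.27. Where the paralog was well above background on none of the female arrays the value is a bound, of at least 13.54 for Hex-t1, 14.50 for Pglym87 and 12.31 for SdhAL. In the male thorax Hex-t1, Hex-t2 and Pglym87 were well above background on only 2 arrays and SdhAL on 1. The sizes of those shifts therefore rest in part on values near background.

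Copies of other enzymes of the chain that are not among the 43 genes shifted in the same direction. Gpo3 over Gpo1 was 18.57 log2 units higher in the tip than in the male thorax, the largest shift of the 14 pairs, and Gpo2 over Gpo1 was 16.68 higher. On male thorax replicates 1 and 2 Gpo3 read -7.98 and -8.35. The lowest levels well above background on those arrays were -6.46 and -6.78, so the size and rank of this shift are uncertain. Gpdh2 and Gpdh3 over Gpdh1 were 16.33 and 13.14 higher, with tip replicate 1, where Gpdh1 was low, above the other tip arrays in both, and 14.94 and 11.87 higher without that array. Ald2 over Ald1, mAcon2 over mAcon1 and Scsalpha2 over Scsalpha1 were 14.67, 14.55 and 14.52 higher. Ald1 entered this ratio by its brightest probe. Of its 5 probes, 3 were called lower in the tip and the others were not, so the size of that shift depends on the probe. Against the female thorax these 7 ratios differed by 13.51 to 19.48, 5 of them as measured values with a bound of 14.24 to 18.46.

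Of the 14 pairs, 2 shifted the other way in both comparisons. Hex-C over Hex-A was -1.01 and -1.41 in the tip relative to the male and female thorax, and Gapdh1 over Gapdh2 was -0.90 and -0.89, which is 1.86-fold. The ratio of the 2 Gapdh genes lay between -0.85 and -0.73 on the tip arrays and between -0.04 and 0.24 on the thorax arrays. The shift of Hex-C lost its call after quantile normalization and with normexp correction in both comparisons, and turned to 0.11 against the male thorax when the mean over both Hex-A probes was used. Inside a single slide the smallest exact p that 2 against 2 arrays allow is 0.333, and there each of the 28 differences kept its sign.

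**Figure D3:**
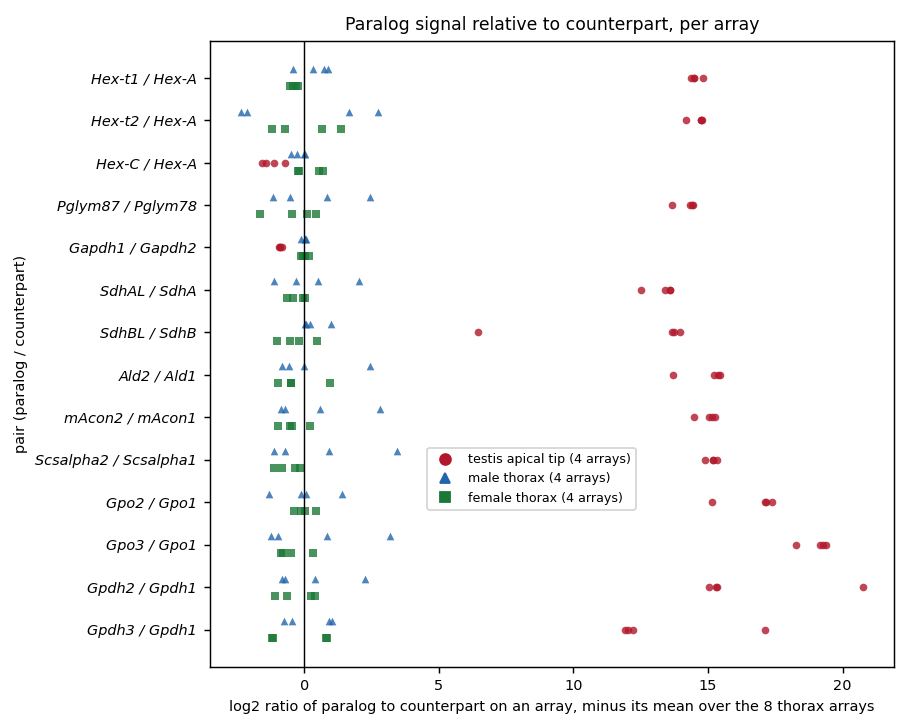
Log2 ratio of each paralog to its counterpart on every array, minus the mean of that ratio over the 8 thorax arrays, for 14 pairs; circles are tip, triangles male thorax and squares female thorax arrays. The tip arrays of 12 pairs lie far to the right, SdhBL over SdhB on tip replicate 1 is the nearest of them to the thorax, and Hex-C over Hex-A and Gapdh1 over Gapdh2 lie to the left of 0.

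A list of 50 other genes of the same and adjoining steps was set beside the 43 genes, of which 49 were on the array. Against the male thorax 27 of the 49 were higher in the tip, 21 lower and 1, Pdp, not called, with a median change of 4.34 log2 units. Against the female thorax 28 were higher and 21 lower, with a median of 4.43. Over all genes 33.1% were higher and 40.9% lower against the male thorax, with a median of -0.49. Against the female thorax these were 32.5%, 42.9% and -0.59. The list was chosen with earlier results of these data known. Those that rose include further copies of enzymes named above, among them Gpo3 (9.98 against the male thorax), Scsalpha2 (9.67), mAcon2 (9.53), Gpdh2 (9.24), Ald2 (8.94) and the fumarase copies Fum2 (7.19), Fum3 (9.45) and Fum4 (6.75). Argk2, a second arginine kinase gene, rose by 5.22 and Irp-1A, an iron regulatory protein related to aconitase, by 1.73.

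Among those that fell were genes around the pathway that the 43 genes do not include. Ogdh, a subunit of the oxoglutarate dehydrogenase of the TCA cycle, changed by -7.37, the glycogen primer glycogenin (Gyg) by -7.58, the trehalose synthase Tps1 by -6.32, the trehalose transporter Tret1-1 by -7.58 and fbp, a gluconeogenic fructose bisphosphatase, by -8.11 log2 units. Pepck2, a phosphoenolpyruvate carboxykinase, was well above background on none of the tip arrays and was at least 339-fold lower there than in the male and at least 241-fold lower than in the female thorax. With no scaling 29 of the 49 were higher and 14 lower against the male thorax, and 32 higher and 12 lower against the female thorax. The shares that were higher, 59.2% and 65.3%, were then near the 57.8% and 61.3% of all genes.

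The genes lie on all major chromosome arms, 7 of the 43 on the X and 36 on autosomes. On the X, 6 genes were lower in both comparisons (Hex-A, Gapdh2, Pdha, kdn, Idh3a and Fum1) and SdhBL was higher, with a median change of -4.49 log2 units against the male thorax. The autosomal genes had a median of -3.69, with 30 lower, 5 higher and 1 not called. Over all 1965 X-linked genes the median was -0.83, with 45.8% lower and 29.2% higher, and over all 10551 autosomal genes it was -0.29, with 39.4% lower and 35.7% higher, so the X was the lower of both also among all genes. Among the 43 genes and the 49 others, 8 pairs are direct neighbours with no gene between them in the reference annotation. Of these pairs, 5 had 1 gene lower and 1 higher in the tip. The share of such pairs over all neighbouring genes was not computed, and 40.9% of all genes were lower and 33.1% higher. The count is thus no trait shown for these genes. Fum1 on the X changed by -4.49 log2 units beside Fum2, which rose by 7.19. Argk1 on 3L (-2.66) lies beside Argk2 (5.22), PyK on 3R (-4.11) beside CG7069 (5.87), Pdha on the X (-6.01) beside CG7024 (6.62), and Tret1-1 on 2R beside Tret1-2 (2.82). Hex-t1 and Hex-t2, neighbours on 3R, both rose. All of these values are against the male thorax, and the signs of the neighbours were the same against the female thorax.

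Where a gene has several probes, they did not always move together. Over the 27 genes with several probes, 4 had probes of opposite sign against the male thorax, and 1, ScsbetaG, had opposite calls. The same shares over all genes of the array with several probes were not computed, here or without tip replicate 1 below. Whether such splits are more frequent among these genes is therefore not known. Over all 82 probes, 65 were lower, 8 higher and 9 not called against the male thorax, where 46.1% of all probes were lower and 22.6% higher. Some genes called lower had probes that were not. In that comparison 1 of 3 probes was called lower for Pfk and for Tpi, 1 of 2 for Idh and 3 of 4 for Gpdh1. For Ald1 the 3 probes assigned to transcript RB changed by -5.73, -5.91 and -6.27 log2 units, while a probe of transcript RE read 3.68, 3.29, 3.31 and 3.23 in the tip and 3.35, 3.62, 3.45 and 3.50 in the male thorax, a change of -0.10 that was not called. The other RE probe read -5.13, 2.89, 3.04 and 2.96 in the tip and -0.87, -1.25, -1.68 and -1.26 in the male thorax, so that 3 of 4 tip arrays were higher and tip replicate 1 was lower, and its change of 2.20 became 4.23 without that array.

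ScsbetaA showed the widest split. Its second probe read 3.54, 2.83, 2.93 and 2.89 in the tip, -3.93, -3.73, -3.18 and -3.89 in the male thorax and -3.77, -3.89, -3.98 and -3.94 in the female thorax, a rise of 6.73 and 6.94, opposite in sign to the brighter probe, which is assigned to the same transcript. For ScsbetaG the RA probe rose and the RB probe fell (-2.14 against the male thorax). Of the 3 Tpi probes, the dimmest read -8.68, 2.13, 2.24 and 2.26 in the tip and 0.27, 0.32, -1.54 and -1.47 in the male thorax, so that without tip replicate 1 it rose by 2.82 where the other 2 fell. Without that array 5 genes had probes of opposite sign and 4 had opposite calls against the male thorax (Ald1, Tpi, ScsbetaA and ScsbetaG), and against the female thorax 4 had opposite calls as well (Pfk, Ald1, Tpi and ScsbetaG). For these genes a single direction of the gene as a whole cannot be given from these probes.

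**Figure D4:**
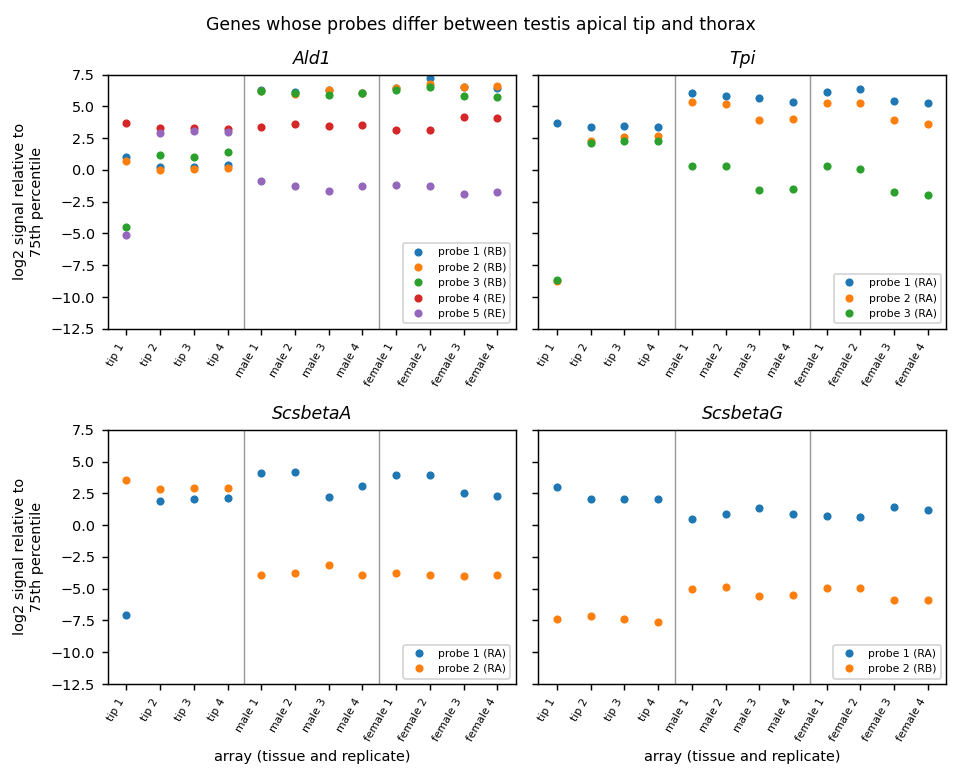
Scaled log2 signal of every probe of Ald1, Tpi, ScsbetaA and ScsbetaG on the 12 arrays, each colour a probe with the transcript it is assigned to. Probes of one gene differ in direction between tip and thorax, and several drop on tip replicate 1 only, as probe 1 of ScsbetaA (-7.05 there and 1.90 to 2.09 on the other tip arrays).

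Between male and female thorax no difference was detected for the 43 genes: limma called 0 higher and 0 lower in males, where 0.0933% and 0.337% of all genes were so, and 1 of the 43 had an unadjusted p under 0.05. The median difference was -0.09 log2 units, male minus female. The standard errors of these differences ran from 0.23 to 1.72 log2 units, so small differences were not detectable in this fit. It estimates the spread of a gene over all 12 arrays, so tip replicate 1 entered these errors. Without that array limma again called 0 genes, and 5 of the 43 had an unadjusted p under 0.05. The standard error then fell from 1.72 to 0.51 for ScsbetaA, from 1.25 to 0.34 for SdhBL and from 1.07 to 0.21 for Idh3g. For Hex-t2, Pglym87 and SdhAL it rose. With array weights estimated by limma, 6 genes were called. Treh (0.58, adjusted p = 0.0181) and Idh (0.58, adjusted p = 0.00748) were higher in males. Gapdh2 (-0.54, adjusted p = 0.0191), Pgk (-0.54, adjusted p = 0.0393), Eno (-0.55, adjusted p = 0.0301) and SdhD (-0.34, adjusted p = 0.039) were lower. The weights were 2.01 to 4.31 for the thorax arrays of slide A and 0.27 to 0.36 for the other thorax arrays. The weighted differences therefore rest mostly on slide A. With these weights 7.09% of all genes were called higher and 10.6% lower in males, so the share among the 43 genes was near that of the array. Of 8 fat body markers the yolk protein genes Yp1, Yp2 and Yp3 were lower in males and the other 5 were not called, and germline and follicle markers of the female read 4.72 and 3.34 on female replicates 1 and 4 against -1.74 and -3.24 on the other 2 arrays. The part of either in the thorax values was not tested.

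The slide also moved with thorax levels. The genes kdn, Idh3b and ScsbetaA read more than 1 log2 unit higher on slide A than on the other slide in both sexes, as did 7.86% of all genes (3 of the 43 is 6.98%). For kdn the gap was 1.57 log2 units in males and 3.32 in females, for Idh3b 1.37 and 1.64, and for ScsbetaA 1.49 and 1.50. Within slide A alone, with 2 arrays a sex, limma called 0 of the 43 genes, where 0.0934% of all genes were higher and 0.215% lower in males, and 9 of the 43 had an unadjusted p under 0.05. The other 2 arrays of each sex lie on different slides, so slide and sex cannot be told apart there.

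Male thorax replicate 3, on slide B beside 2 tip arrays, read highest of the 4 male arrays for all 6 genes that rose in the tip and for 24 of the 27 other pathway genes that rose, against 47.2% of all 4612 genes called higher. Hex-t2 read -2.71 on it against -8.35 to -4.06 on the others, and Pglym87 -3.57 against -6.87 to -5.52. The summed level of 8 postmeiotic spermatid markers was 1.80 on this array against -0.77 to -0.21 on the other male arrays and 6.93 to 7.09 in the tip, and that of the germline markers was 3.32 against 2.68 to 3.16, and their part in the thorax levels of the paralogs was not tested. Without this array the rises against the male thorax were larger, 8.72 log2 units for Hex-t1, 9.95 for Hex-t2, 9.54 for Pglym87 and 6.50 for SdhBL, all called. Hex-t1, Hex-t2 and Pglym87 were then well above background on 1 male array, and SdhAL on none, so no value is given for it.

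**Figure D5:**
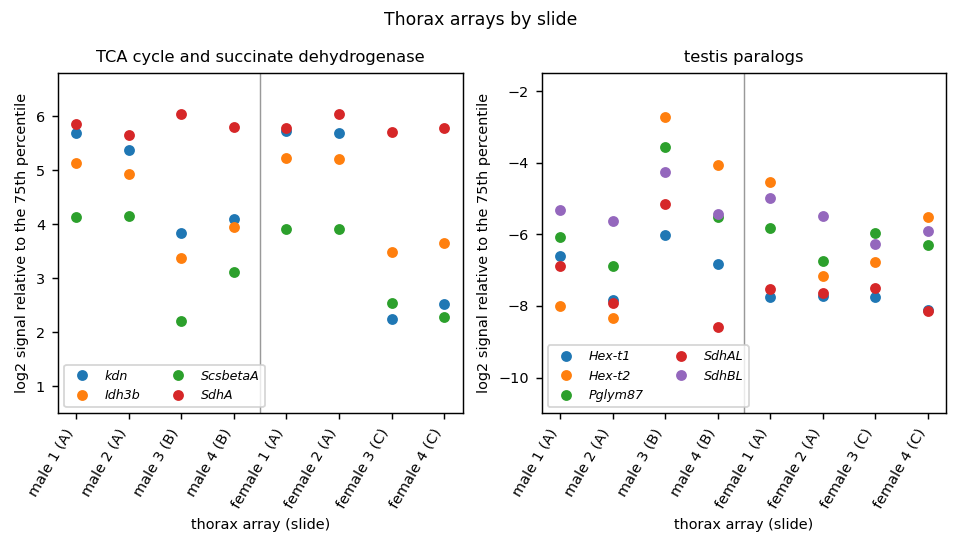
Scaled log2 signal on the 8 thorax arrays, with the slide in brackets, for 4 genes of the TCA cycle and succinate dehydrogenase (left) and for 5 paralogs that rose in the tip (right). kdn, Idh3b and ScsbetaA are higher on slide A in both sexes while SdhA is not, and the paralogs are highest on male replicate 3 among the male arrays.

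Both tip comparisons could also be made inside a single slide, with 2 arrays against 2. All 43 genes kept the sign of their change, on slide B against the male and on slide C against the female thorax. On slide B 30 genes were called lower and 4 higher, with Treh, Pfk, Tpi, Pdhb, Idh, Idh3b, ScsbetaG and SdhBL losing their call, where 20.5% of all genes were lower and 18.3% higher. That slide holds both tip replicate 1 and male thorax replicate 3. On slide C 36 genes were called lower and 6 higher, where 45.6% of all genes were lower and 35.7% higher.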

How the data were processed

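RNA of testis apical tip, male thorax and female thorax was hybridized to 1-colour (Cy3) Agilent Drosophila arrays, 4 per tissue. The intensities, as deposited, are the output of Agilent Feature Extraction (version 9.1 in the submitters' processing notes, 10.5.1.1 per the file headers), corrected for spatial trend and background spot by spot. The software sets the smallest values to a positive surrogate, and arrays were not scaled to each other. The authors also deposited log2 values per tissue, averaged over arrays by them; these have no replicates and were used only to check the unscaled tissue means. Control spots and spots set aside as outliers (112 to 389 an array) were left out, replicate spots averaged, and log2 values reduced by each array's 75th percentile. Replicate numbers follow slide and position and only name arrays. The number of arrays limits the precision, and p-values measure the spread between these arrays.

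Probes were assigned to genes by locus tag, and symbols, arms and neighbours come from a later reference annotation. Tissues were compared with limma 3.58.1 in R 4.3.3 (all 12 arrays, Benjamini-Hochberg over 32162 probes), and paralog ratios by exact permutation over all labellings of the arrays in Python 3.11.15. Levels on every array are given for members of the paralog pairs and the 3 largest rises and falls in each comparison; other genes named were chosen after their values were seen. The 43 genes and all lists were chosen with earlier results of these data known. Both tests were tested on simulated data. Alternatives covered filter, scaling, background correction (normexp, offset 50, on the median spot signal), slide, array weights, probe choice and each array left out; leaving out tip replicate 1 and male thorax replicate 3 together was added after the data were seen. No comparison columns of the authors were used.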

Additional observations from a re-analysis of the deposited data

Results flagged for a closer look

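In each tissue, each of the 43 genes was searched for a single array far from the other 3, by the ratio of its gap to the whole range. Of 129 groups searched, 25 had such an array, where independent normal values would give about 1 in 20, and 23 of them were tip replicate 1. The search was not run over all genes, so the share over the array is not known. Tip replicate 1 also deviated beyond these genes. Of all 15367 probes with a mean log2 signal above 10 on the other tip arrays, 3341 read more than 3 log2 units lower on it. On that array 17 genes read above the other 3 tip arrays, at the following scaled log2 levels: GlyP at -0.21, Hex-A at -0.74, Hex-t1 at 2.47, Pgi at 3.05, Pfk at 3.16, Gapdh2 at 2.90, Pgk at 2.00, Pglym78 at 2.04, Gpo1 at -2.10, Pdha at 0.68, Pdk at -3.48, mAcon1 at 1.69, Idh3a at 2.26, ScsbetaG at 2.97, Scsalpha1 at 1.02, SdhA at 2.91 and SdhD at -0.25. Read below the others were 6 genes: Gpdh1 at -5.16, kdn at -1.85, Idh at 2.55, Idh3g at -5.66, ScsbetaA at -7.05 and SdhBL at -3.91. The largest gap was that of ScsbetaA, which read 1.90 to 2.09 on the other tip arrays. The remaining values are Hex-t1 on female thorax replicate 4 at -8.11, against -7.75 to -7.72 on the other female arrays and not well above background on any, and Ald1 on female thorax replicate 2 at 7.19, against 6.46 to 6.56.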

How the results depend on the processing

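Over up to 26 alternatives a gene, 30 of the 43 genes kept their direction and their side of the threshold against the male thorax, and 30 against the female thorax. A filter that asks each probe to exceed background clearly on every one of the 12 arrays left 37 genes, with 1 higher in each tip comparison, since that filter removes the paralogs dim in the thorax. Array weights gave 2 genes higher and 4 lower in the male against the female thorax where equal weights gave 0. With each array left out in turn, 35 to 37 genes were lower and 6 higher against the male thorax, 34 to 36 lower and 6 higher against the female thorax, and 12 to 14 and 13 to 14 of the 14 paralog ratios were called. With no scaling these changes turned sign against the male thorax: Treh 1.40, Pfk 0.87, Tpi 0.11, Pdhb 0.21, Idh 0.62 and Idh3b 1.06. Against the female thorax they were Treh 2.19, Pfk 1.34, Tpi 0.35, Ldh 0.37, Pdhb 0.56, Idh 1.33 and Idh3b 1.32, with Pdhb at 0.023 after quantile normalization and Idh at 0.10 with normexp. The mean over all probes turned ScsbetaA to 1.54 and 1.76, ScsbetaG to -0.38 and -0.35, and the ratio of Hex-C to Hex-A to 0.11 against the male thorax. Idh3b lost its call most often, with its sign kept in 11 alternatives against the male and 8 against the female thorax. With no scaling it also lost its call, and there its sign turned. Leaving out tip replicate 1 and male thorax replicate 3 together, chosen after seeing the data, gave 37 genes lower and 6 higher in each tip comparison. The cause of these shifts was not tested. No paired analysis was possible because the labels give the arrays no replicate numbers shared between tissues. Probes near background in the thorax allow only bounds on the rises.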
